A study of Sus scrofa with 4 samples.

Results

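In porcine fetal fibroblasts, 46 genes of mitosis were followed: the cyclins and kinases that start it, the checkpoint and ubiquitin ligase that time it, the kinetochore, the mitotic kinesins, and factors of the spindle and of cytokinesis. They were named by symbol, and 44 of the 46 were found among the 35670 genes of the count files. AURKA and MKI67 matched no symbol there and were not analysed here. All 44 had at least 10 reads in a library and passed the filter on low counts, as did 14617 genes in all.

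RNA was sequenced from 4 libraries of skin fibroblasts (cell line label PFFs), all serum-starved: 2 controls with genotype WT and 2 with genotype BRG1-overexpressed. BRG1, encoded by SMARCA4, is the ATPase of the BAF chromatin remodelling complex, and the series asks what more of it does to the chromatin of donor cells for cloning. All 4 titles include pTK-642, a name left unexplained by the labels, so whether a vector is present in the controls is unknown. Separate cultures are not stated for the replicates, and p-values therefore measure only the spread between these libraries.

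Cells prepare mitosis by switching on a shared set of genes late in the cell cycle. The transcription factors B-MYB and FOXM1, bound to the MuvB core, activate them, and in resting cells the DREAM complex, built on the same core with p130 and E2F4, keeps them silent. Cyclin B with CDK1 then drives entry into mitosis, kinesins and spindle factors move the chromosomes, and the anaphase-promoting complex (APC/C) ends the phase by marking cyclin B and securin for breakdown. Serum withdrawal is a common way to bring fibroblasts to rest, and the RNAs of these genes are scarce in resting cells. In bulk RNA, fewer cells in division and less RNA per dividing cell cannot be told apart.

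Reads in genes numbered between 34486400 and 38126860 per library. Levels are given as CPM, counts per 1000000 reads after scaling by TMM (a correction for differences in composition between libraries). Differences are log2 fold changes, BRG1-labelled libraries over controls, with the standard error (SE) of the edgeR quasi-likelihood fit, and a gene was called at an adjusted p (Benjamini-Hochberg over all genes tested) under 0.05. SMARCA4 did not check the labels: its CPM was 154 and 179 in controls and 159 and 163 in the libraries labelled BRG1 (log2 fold change -0.04 ± 0.11 SE; adjusted p = 0.765, edgeR). The share of reads that fell outside annotated genes was 6.11% and 7.34% in controls and 10.3% and 10.5% in the libraries labelled BRG1. All 9 fibroblast markers found (of 10 listed) were present, their summed level ranging from 25587 to 28754 CPM in controls and from 35957 to 36016 in the libraries labelled BRG1. COL1A1 (means of 4946 CPM in controls and 10199 with the BRG1 label) and COL1A2 (4015 and 7771) rose, as did DCN, LUM and PDGFRA, while COL3A1, VIM, S100A4 and PDGFRB had lower means without a call. Summed over 6 keratinocyte and epithelial markers (of 7 listed) the level stayed under 1 CPM in every library, with KRT5, KRT1 and KRT8 at 0 reads. EPCAM was called lower, at 14 and 20 reads in controls and 3 and 1 in the libraries labelled BRG1. The 5 endothelial markers summed to between 4.39 and 4.91 CPM in controls and between 7.01 and 7.77 in the libraries labelled BRG1. PECAM1 rose, from 2.49 and 3.24 CPM in controls to 6.30 and 7.05. VWF stood lower without a call, at 2.34 and 1.15 CPM in controls and 0.71 and 0.72 with the BRG1 label. TEK had 0 reads. The 6 blood and immune markers summed to 1.43 and 2.99 CPM in controls and 2.93 and 4.51 in the libraries labelled BRG1. No melanocyte or skeletal muscle marker reached 1 CPM in any library. The part of these markers in the results below was not tested.

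The mitotic genes did not move together. TOP2A, ECT2, CENPF, ASPM, KIF20B and KIF11 rose in the libraries labelled BRG1, by 1.43-fold to 2.11-fold, and KIF22, MAD2L1 and KIFC1 fell, to between 0.545 and 0.691 of the control level. The other 35 were not called, among them CDK1 and each cyclin and mitotic kinase found among the 44. Further cyclins and kinases are given below with the other lists. Of all genes tested 44.6% were called, 21% as higher and 23.6% as lower, against 9 of the 44 mitotic genes (20.5%). Among the 1794 genes whose mean level lay between the lower and upper quartiles of these 44, 40% were called, and their median SE of 0.26 on the log2 scale was close to the 0.25 of the mitotic genes. The median size of the log2 difference, whatever its sign, was 0.40 for the mitotic genes, 0.52 for the genes of like level and 0.44 for all genes. The median signed difference was -0.0071 for the mitotic genes, 0.24 for the genes of like level, of which 503 were called higher and 215 lower, and 0.02 for all genes. Scaling by library size alone, which raised the median of all genes by 0.23, gave 10 rises and 1 fall among the 44, and leaving out library 1 labelled BRG1 gave 3 and 2. Without that library 26.9% of all genes were called, 1908 as higher and 2177 as lower.

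The groups did not overlap in 30 of the 44 genes, 13 with the libraries labelled BRG1 above the controls and 17 with them below. Groups without overlap made up 73.2% of all genes tested. Summed over the 44 genes, the level was 326 and 297 CPM in controls and 343 and 334 in the libraries labelled BRG1. BUB3, which also has roles outside mitosis, made up 72.6 and 60.7 of those CPM in controls and 58.2 and 55.9 with the BRG1 label. TOP2A alone made up 26.9 and 26.0 CPM in controls and 55.3 and 56.0 in the libraries labelled BRG1. The rises of TOP2A, ECT2 and CENPF and the fall of KIF22 were called under each of the 12 other settings tried. The other 5 calls were each lost under at least 1 setting, given beside the gene. Leaving out a library leaves 1 in its group, so the spread then rests on the other group alone. Calls lost or gained in those fits therefore cannot tell a change in a gene's difference from a change in that spread.

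**Figure D1:**
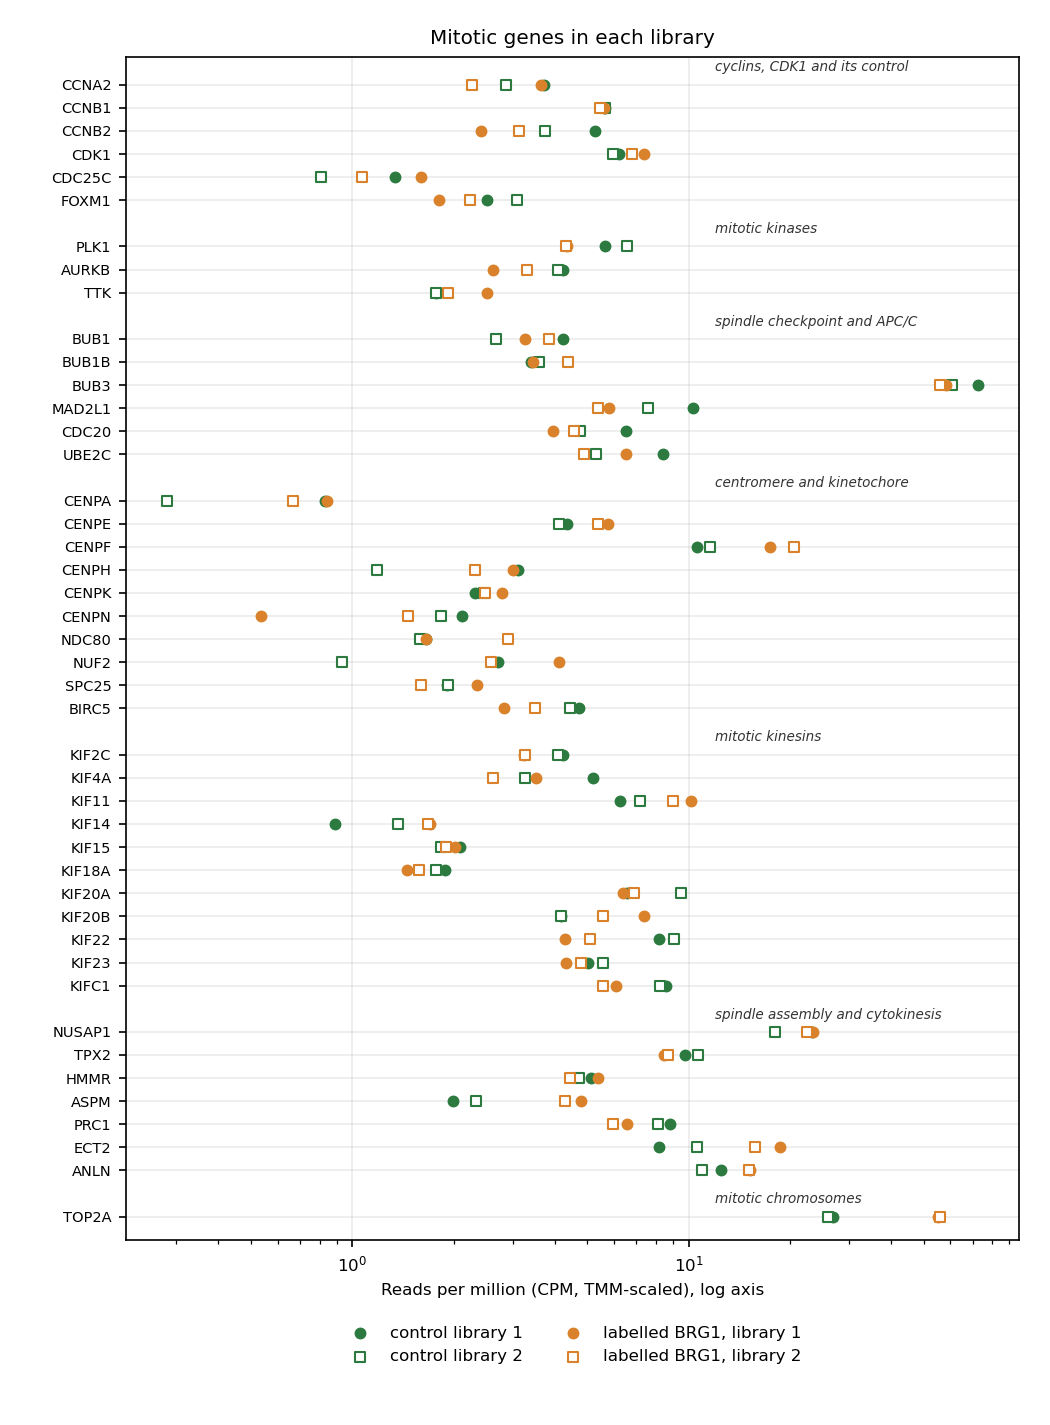
Level of each of the 44 mitotic genes in each library, in TMM-scaled CPM on a log axis, with genes grouped by role; filled circles are library 1 and open squares library 2 of a group. TOP2A stands at 26.9 and 26.0 CPM in controls against 55.3 and 56.0 in the libraries labelled BRG1, while the 4 points of CCNB1 nearly coincide.

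None of the 6 genes for cyclins, CDK1 and its control was called. CCNB1, cyclin B1, the main partner of CDK1 at entry into mitosis, stood at 5.63 and 5.64 CPM in controls and 5.61 and 5.45 in the libraries labelled BRG1. Its 4 libraries were nearly level, with a fold of 0.982 and a 95% interval from 0.718 to 1.34. CCNB2, cyclin B2, stood at 5.26 and 3.74 CPM in controls and 2.42 and 3.13 in the libraries labelled BRG1, with no overlap between the groups (log2 fold change -0.70 ± 0.29; adjusted p = 0.0602). CCNA2, cyclin A2, which acts from S phase into early mitosis, overlapped between the groups (3.71 and 2.87 against 3.65 and 2.27 CPM). CDK1 itself stood at 6.20 and 5.95 CPM in controls and 7.37 and 6.79 in the libraries labelled BRG1 (0.22 ± 0.20; adjusted p = 0.389). CDC25C, the phosphatase that removes the inhibitory phosphates of CDK1, was read only 47, 26, 63 and 40 times, and its interval ran from 0.59-fold to 2.60-fold. FOXM1, the forkhead activator of late cell cycle genes, stood at 2.51 and 3.08 CPM in controls and 1.81 and 2.24 in the libraries labelled BRG1, lower in both without a call (-0.46 ± 0.34; adjusted p = 0.282).

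None of the 3 mitotic kinases measured was called. PLK1, which acts from mitotic entry to cytokinesis, stood at 5.63 and 6.57 CPM in controls and 4.36 and 4.33 in the libraries labelled BRG1. The groups did not overlap, and the difference did not pass (-0.49 ± 0.22; adjusted p = 0.0897). AURKB, the kinase of the chromosomal passenger complex, which corrects faulty attachments of chromosomes to the spindle, showed nearly the same difference (-0.48 ± 0.27; adjusted p = 0.163), from 4.23 and 4.08 CPM in controls to 2.63 and 3.31. BIRC5, survivin, a subunit of the same complex, stood at 4.71 and 4.45 CPM in controls and 2.83 and 3.50 in the libraries labelled BRG1 (-0.53 ± 0.26; adjusted p = 0.110). TTK, the kinase MPS1 that starts the spindle checkpoint, lay the other way, at 1.77 and 1.78 CPM in controls and 2.52 and 1.92 in the libraries labelled BRG1 (adjusted p = 0.504).

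In the spindle checkpoint, MAD2L1 fell. It encodes MAD2, which binds CDC20 and holds back the APC/C until every chromosome is attached. Its level was 10.3 and 7.60 CPM in controls and 5.81 and 5.37 in the libraries labelled BRG1 (log2 fold change -0.68 ± 0.21; adjusted p = 0.0146; Sscrofa11.1 chromosome 8, 103927358 to 103936669). Both BRG1-labelled libraries lay below both controls, but the controls were themselves apart, and the difference was -0.45 without control 1 (adjusted p = 0.101). The call was also lost without library 2 labelled BRG1 (adjusted p = 0.0724), with scaling by library size alone (0.0821) and once the trend with gene span was taken out (0.0832). CDC20, the activator of the APC/C that MAD2 inhibits, was lower without a call, at 6.51 and 4.77 against 3.95 and 4.57 CPM (-0.41 ± 0.24; adjusted p = 0.189). UBE2C, a ubiquitin-conjugating enzyme of the APC/C, overlapped between the groups, at 8.40 and 5.29 against 6.53 and 4.89 CPM.

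The other checkpoint genes were not called. BUB3, which docks BUB1 and BUBR1 at the kinetochore, was the best measured of all 44 genes, with 1948 to 2540 reads per library. It stood at 72.6 and 60.7 CPM in controls and 58.2 and 55.9 in the libraries labelled BRG1, and its 95% interval ran from 0.725-fold to 1.01-fold (adjusted p = 0.121). BUB1, a checkpoint kinase, spanned 4.23 and 2.68 CPM in controls and 3.26 and 3.85 in the libraries labelled BRG1. BUB1B, which encodes BUBR1, a subunit of the complex that inhibits the APC/C, spanned 3.40 and 3.58 against 3.44 and 4.38 CPM. Both overlapped between the groups, with log2 fold changes of 0.04 ± 0.30 and 0.16 ± 0.27.

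Among centromere and kinetochore genes, CENPF rose and 9 of 10 were not called. CENPF is a large coiled-coil protein that accumulates towards mitosis and joins the outer kinetochore. It stood at 10.6 and 11.6 CPM in controls and 17.4 and 20.6 in the libraries labelled BRG1 (log2 fold change 0.78 ± 0.15; adjusted p = 0.000785; chromosome 9, 128948386 to 129012241). The groups were well apart, and the value ranged from 0.65 to 1.00 over the other settings. The RefSeq span of CENPF overlaps 1 other gene model, LOC106505039, the only such overlap among the 9 called genes. CENPE, a kinesin that carries chromosomes to the spindle equator, pointed the same way at 4.34 and 4.11 CPM in controls against 5.76 and 5.40 in the libraries labelled BRG1, without a call (0.40 ± 0.23; adjusted p = 0.167). With scaling by library size alone CENPE was called as higher (0.63; adjusted p = 0.0331).

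The NDC80 complex, which binds the microtubule end at the kinetochore, is represented by NDC80, NUF2 and SPC25. NUF2 had 95 and 30 reads in controls and 161 and 97 in the libraries labelled BRG1, or 2.71 and 0.93 against 4.10 and 2.59 CPM (0.87 ± 0.43; adjusted p = 0.115). Control 1 lay above library 2 labelled BRG1, so the groups overlapped. NDC80 stood at 1.66 and 1.59 CPM in controls and 1.66 and 2.91 in the libraries labelled BRG1, and SPC25 at 1.91 and 1.93 against 2.35 and 1.60. These 3 subunits of 1 complex showed log2 fold changes of 0.49 ± 0.40 (NDC80), 0.87 (NUF2) and 0.04 ± 0.38 (SPC25), none of them called.

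The inner kinetochore genes among the 44 were too thinly read for small differences. CENPC, which was read more deeply, is given below with the other lists. CENPA, the histone H3 variant that marks the centromere, had 29, 9, 33 and 25 reads, the lowest of the 44 genes, and an interval from 0.49-fold to 3.73-fold. CENPH and CENPK, subunits of the constitutive centromere network, stood at 3.11 and 1.18 against 3.01 and 2.32 CPM (CENPH) and at 2.31 and 2.46 against 2.78 and 2.48 CPM (CENPK). CENPN, which reads the CENPA nucleosome, stood at 2.11 and 1.84 CPM in controls and 0.54 and 1.47 in the libraries labelled BRG1 (-0.98 ± 0.50; adjusted p = 0.127). It had the most negative estimate of the 44 genes but rested on 1 low library: without library 2 labelled BRG1 the value was -1.88 (adjusted p = 0.0252), and without library 1 it was -0.42 (adjusted p = 0.618).

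**Figure D2:**
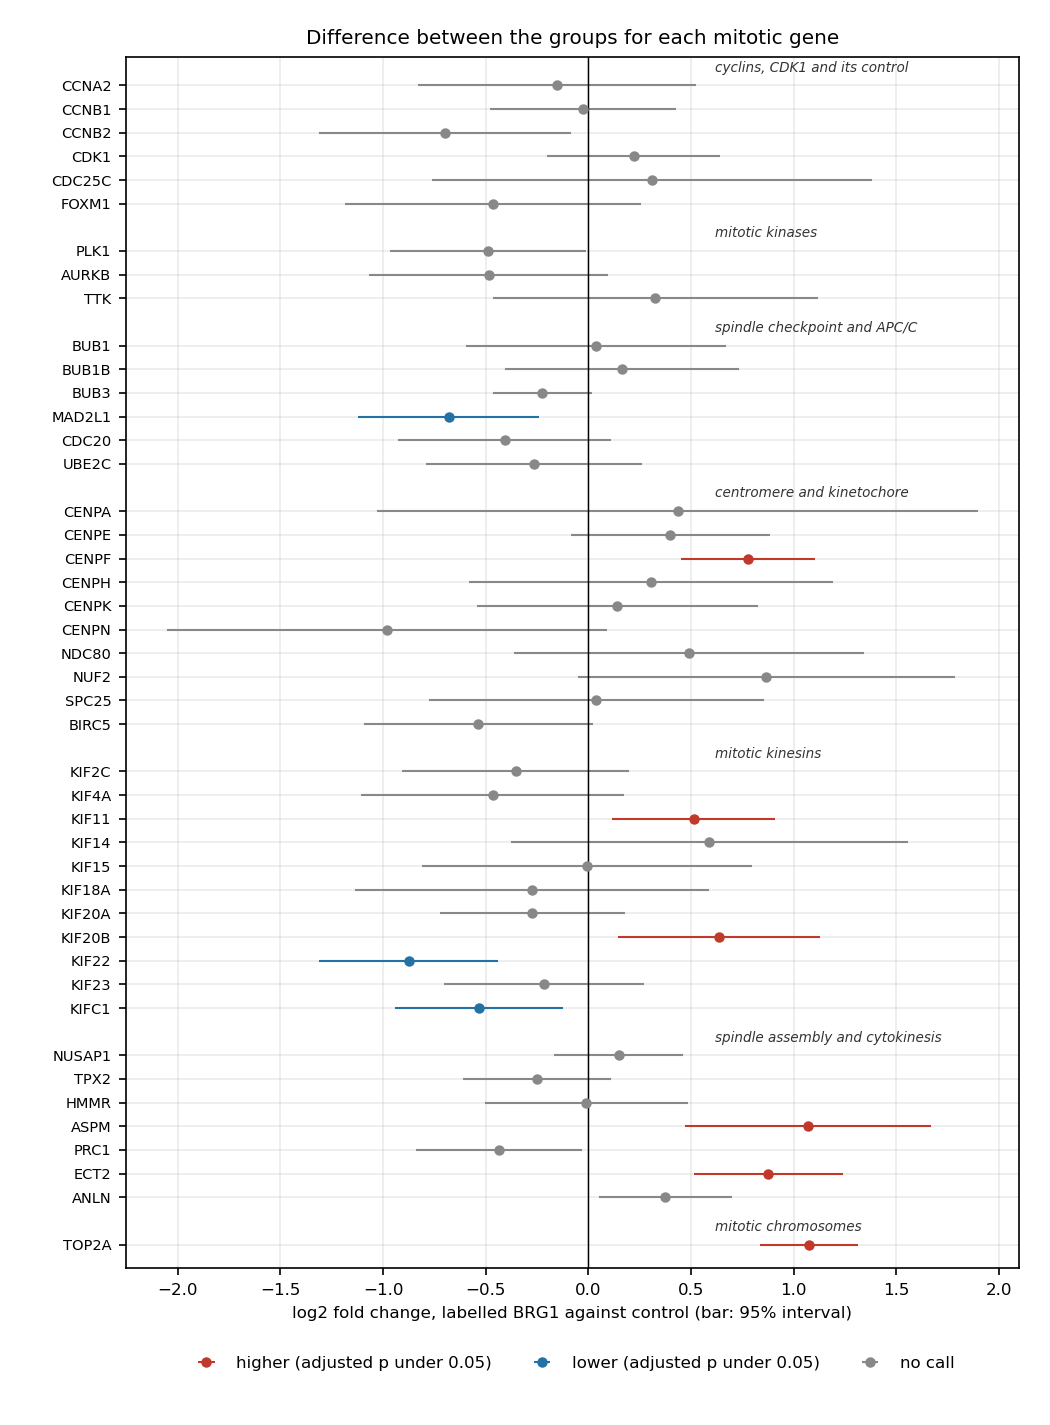
Log2 fold change of each mitotic gene, libraries labelled BRG1 against controls, with 95% intervals; red and blue mark genes called higher and lower at an adjusted p under 0.05, grey those without a call. No gene of the cyclin and CDK1 role or of the kinases is among the 6 rises and 3 falls, and the widest bars belong to CENPA and CENPN.

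Mitotic kinesins, motor proteins that slide, sort and shorten spindle microtubules, moved in both directions: of 11 measured, 2 rose and 2 fell. KIF22 fell the most. It is a chromosome-bound kinesin that pushes chromosome arms away from the spindle poles. Its level was 8.14 and 9.03 CPM in controls and 4.28 and 5.08 in the libraries labelled BRG1 (log2 fold change -0.88 ± 0.20; adjusted p = 0.0028; chromosome 3, 18023104 to 18041732), and its value ranged from -1.01 to -0.65 over the other settings. KIFC1, a minus-end motor that gathers spindle poles, stood at 8.60 and 8.25 CPM in controls and 6.09 and 5.56 in the libraries labelled BRG1 (-0.53 ± 0.19; adjusted p = 0.0346; chromosome 7, 29692775 to 29713716). The KIFC1 groups were well apart, yet the call was lost under 6 of 12 other settings: with DESeq2 (adjusted p = 0.0587), library size alone (0.200), the span trend removed (0.0709), and without control 1 (0.0512), library 1 labelled BRG1 (0.0993) or library 2 (0.204).

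KIF11 and KIF20B rose. KIF11, the motor Eg5 that pushes spindle poles apart, stood at 6.26 and 7.16 CPM in controls and 10.2 and 8.98 in the libraries labelled BRG1 (0.51 ± 0.19; adjusted p = 0.035; chromosome 14, 104125839 to 104177381). KIF20B, a kinesin of the late spindle and of cytokinesis, stood at 4.17 in both controls and at 7.37 and 5.58 in the libraries labelled BRG1 (0.63 ± 0.23; adjusted p = 0.036; chromosome 14, 101512685 to 101594703). Neither gene's groups overlapped. The call of KIF11 was lost with DESeq2 (adjusted p = 0.0687), with the span trend removed (0.064), and without control 1 (0.0922), library 1 labelled BRG1 (0.249) or library 2 (0.0716). That of KIF20B was lost with DESeq2 (0.0642), with the span trend removed (0.0991) and without library 1 labelled BRG1 (0.361).

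The other 7 kinesins were not called. KIF20A, a motor that brings passenger proteins to the central spindle, stood at 6.57 and 9.47 CPM in controls and 6.37 and 6.89 in the libraries labelled BRG1. KIF23, of the centralspindlin complex that organises cytokinesis, stood at 5.03 and 5.58 against 4.33 and 4.78 CPM (-0.22 ± 0.23). KIF2C, which takes microtubule ends apart at centromeres, stood at 4.23 and 4.08 against 3.24 and 3.26 CPM (-0.35 ± 0.26; adjusted p = 0.287), the groups apart and each tight. KIF4A, a chromosome-bound motor, had log2 fold change -0.47 ± 0.30, KIF14, which acts in cytokinesis, 0.59 ± 0.45, KIF15, which backs up KIF11, -0.005 ± 0.38, and KIF18A, which limits microtubule length at the kinetochore, -0.27 ± 0.40. KIF14, KIF15 and KIF18A each had under 100 reads in every library.

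Among factors of spindle assembly and cytokinesis, ECT2 and ASPM rose and 5 of 7 were not called. ECT2 is the exchange factor that activates RhoA at the cell equator so that the cell can pinch in. It stood at 8.17 and 10.6 CPM in controls and 18.7 and 15.8 in the libraries labelled BRG1 (log2 fold change 0.88 ± 0.17; adjusted p = 0.000697; chromosome 13, 111248215 to 111310746). ASPM, a spindle pole protein known from inherited microcephaly, stood at 2.00 and 2.34 CPM in controls and 4.79 and 4.30 in the libraries labelled BRG1 (1.07 ± 0.28; adjusted p = 0.0061; chromosome 10, 19971516 to 20039680). In both genes the lower BRG1-labelled library lay well above the higher control. The ASPM rise narrowly missed the threshold without library 1 labelled BRG1 (0.99; adjusted p = 0.0532).

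ANLN, anillin, the scaffold of the contractile ring, stood at 12.5 and 10.9 CPM in controls and 15.2 and 15.1 in the libraries labelled BRG1, just short of a call (0.38 ± 0.15; adjusted p = 0.0556). PRC1, which bundles the microtubules of the central spindle, lay the other way at 8.83 and 8.13 against 6.58 and 5.96 CPM (-0.44 ± 0.19; adjusted p = 0.0755). Both were apart between groups. TPX2, which activates Aurora A on the spindle, stood at 9.77 and 10.7 against 8.46 and 8.71 CPM (adjusted p = 0.250). NUSAP1, a microtubule bundler, stood at 23.2 and 18.1 against 23.4 and 22.4 CPM, and HMMR, which localises to spindle poles, at 5.14 and 4.73 against 5.38 and 4.43 CPM. Both overlapped between groups, with 95% intervals from 0.892-fold to 1.38-fold (NUSAP1) and from 0.706-fold to 1.40-fold (HMMR).

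TOP2A had the largest rise and the smallest p of the 44 genes. It encodes topoisomerase II alpha, which untangles sister chromosomes before they part. It had 940 and 834 reads in controls and 2168 and 2098 in the libraries labelled BRG1, or 26.9 and 26.0 against 55.3 and 56.0 CPM. Replicates differed by far less than the groups, and the level was 2.11-fold higher (log2 fold change 1.08 ± 0.11; adjusted p = 2.20e-06; chromosome 12, 22001300 to 22028452). Over the other settings the value ranged from 1.04 to 1.30. TOP2A and ASPM were the only 2 of the 44 with a fitted change of at least 2-fold.

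The differences went with gene span, the genomic distance from a gene's start to its end. The 6 genes that rose span a median of 63.2 kb and the 3 that fell 18.6 kb. Among the 22 genes below the 44 genes' median span 1 rose (TOP2A) and 3 fell, with a median log2 fold change of -0.31; among the 22 above it 5 rose and 0 fell, with a median of 0.24. The Spearman correlation of log2 fold change with span was 0.47 over the 44 genes and 0.24 over the 9269 tested genes within the same range of spans. It was 0.43 over 116 other mitotic genes, whose spans range more widely, and 0.29 over all 11328 tested genes with a span. These points share the same 4 libraries and are given as a description. Over all genes with a span, the median log2 fold change went from -0.35 in the shortest decile to 0.29 in the longest.

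With each library's trend with span removed, 4 mitotic genes rose (TOP2A, ECT2, CENPF and ASPM) and 1 fell (KIF22), all of them among the 9 above. The median over the 44 genes was then 0.02. MAD2L1, KIFC1, KIF11 and KIF20B lost their calls in that fit.

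**Figure D3:**
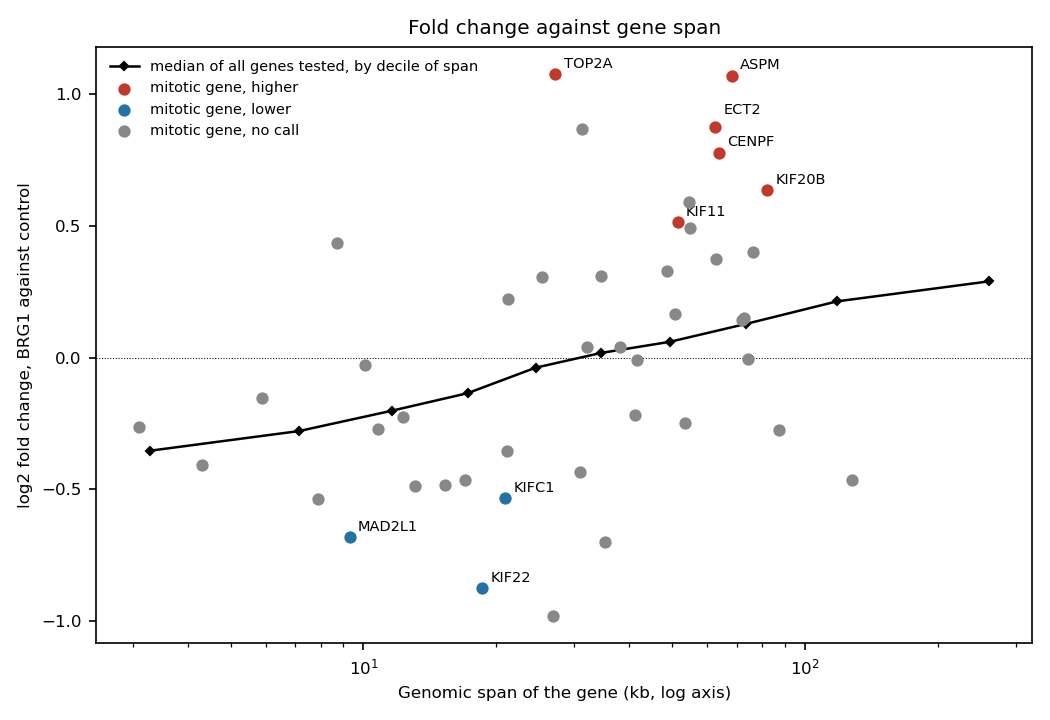
Log2 fold change of the 44 mitotic genes (points) against genomic span in kb on a log axis, with the median of all tested genes in each decile of span (black line). TOP2A, at 27.2 kb, stands farthest above the line, while the other 5 rises lie to the right, between 51.5 and 82.0 kb.

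Among genes without a call, the 4 with the widest gap between libraries of 1 group were CENPA, NUF2, CENPN and CENPH. Control 1 exceeded control 2 by 2.96-fold for CENPA, 2.90-fold for NUF2 and 2.63-fold for CENPH (109 against 38 reads), and CENPN in library 1 labelled BRG1 was 0.364 of library 2. The gap passed 1.5-fold for 8 of 44 genes between controls and for 5 between the libraries labelled BRG1, and for 334 and 173 of the 1794 genes of like level. Control 1 was the higher control in 27 of the 44 (61.4%), against 52.1% of the genes of like level. Library 1 labelled BRG1 was the higher of its group in 27 as well, against 49.5%.

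The values moved with the control used: the median log2 fold change of the 44 genes was 0.06 without control 1 and -0.13 without control 2. With 1 control left, the spread between replicates rests on the libraries labelled BRG1, which lay closer together than the controls. The calls given next therefore take no account of the spread between controls. Of all genes, 51.8% were called without control 2 and 45.5% without control 1. Without control 2, 6 mitotic genes rose and 9 fell, the added falls being CCNB2, BUB3, CDC20, UBE2C, KIF4A and PRC1. Without control 1, 9 rose and 3 fell: CENPH, NUF2, NUSAP1 and ANLN joined the rises and PLK1 and KIF20A the falls, while MAD2L1, KIF11 and KIFC1 were no longer called. All 9 genes called with both controls kept the direction of their difference with either control alone.

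**Figure D4:**
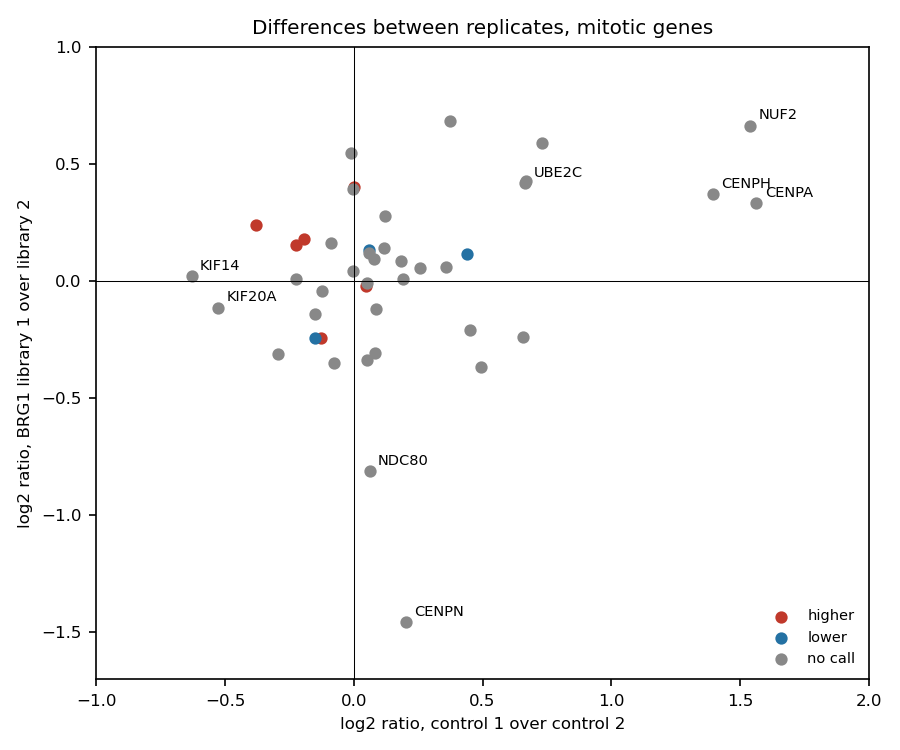
Log2 ratio of library 1 over library 2 for each mitotic gene, among controls (x axis) and among libraries labelled BRG1 (y axis), coloured by the call between the groups. NUF2, CENPH and CENPA lie far to the right, higher in control 1, and CENPN lies lowest; the 9 called genes lie nearer the centre.

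The rest of the mitotic machinery was read from 130 other genes in 5 lists, of which 121 were found and 119 tested. Of these, 14 rose and 23 fell (31.1% called, against 44.6% of all genes), with a median log2 fold change of -0.08. As among the 44 genes, changes ran in both directions, and most genes were not called. The balance depended on the scaling: by library size alone 26 rose and 8 fell. Without library 1 labelled BRG1 4 rose and 7 fell, and without library 2 10 rose and 11 fell.

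Of 33 other centromere and kinetochore genes 5 rose and 5 fell, or 6 and 1 by library size alone, and leaving out library 1 or 2 labelled BRG1 gave 1 and 1 or 5 and 2. CENPB, which binds a repeat in centromeric DNA, fell from 127 ± 7.03 to 75.9 ± 7.16 CPM (mean ± SD, n = 2; log2 fold change -0.74 ± 0.11 SE). CENPJ, a centriole protein despite its name, rose from 8.67 ± 1.04 to 15.6 ± 2.14 CPM (0.84 ± 0.17). CENPC, the scaffold that links CENPA chromatin to the outer kinetochore, rose from 17.2 ± 0.87 to 24.3 ± 2.34 (0.49 ± 0.14). With the span trend removed the values were -0.36 (CENPB), 0.73 (CENPJ) and 0.35 (CENPC), all still called. The CENPC call was lost without library 1 labelled BRG1 (0.39; adjusted p = 0.172).

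Of 21 genes of the APC/C and separase list 1 rose and 7 fell, with a median of -0.20; by library size alone 5 rose and 3 fell, and the median was 0.02. Leaving out library 1 or 2 labelled BRG1 gave 0 rises with 3 or 2 falls. UBE2S, the enzyme that extends ubiquitin chains on APC/C substrates, fell from 89.2 ± 14.0 to 42.1 ± 3.52 CPM (-1.08 ± 0.12). Its partner UBE2C, above, had a value of -0.26 without a call. ANAPC2, the cullin subunit of the APC/C, fell by 0.63 ± 0.11 on the log2 scale and ANAPC15, which helps to release the checkpoint complex, by 0.63 ± 0.14. The ANAPC15 call was lost without library 2 labelled BRG1 (adjusted p = 0.0577) and with the span trend removed (0.0952).

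Of 22 regulators of mitotic entry and exit 1 rose and 6 fell, or 6 and 2 by library size alone, and leaving out library 1 or 2 labelled BRG1 gave 0 rises with 1 or 4 falls. CKS2, a small subunit that binds CDK1, fell from 13.4 ± 2.83 to 4.63 ± 0.09 CPM (-1.54 ± 0.20), while CDK1 itself was not called. CDC14A, a phosphatase, fell by 0.72 ± 0.16 on the log2 scale, and NEK9, a kinase that helps centrosomes to separate, rose by 0.35 ± 0.10. The cyclins CCNB3 and CCNF fell by 0.85 ± 0.26 and 0.53 ± 0.19. By library size alone CKS2 and CDC14A were the only falls of this list. NEK9 was not called without library 1 or library 2 labelled BRG1, though its value stayed at 0.35 in both fits. CDC14A was not called without library 1, where its value was -0.58.

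Of 31 other genes of the spindle, centrosome and cytokinesis 5 rose and 1 fell, or 7 and 1 by library size alone, 1 and 1 without library 1 labelled BRG1, and 2 and 2 with the span trend removed. In the main fit the fall was that of TUBG1, gamma-tubulin, which seeds microtubules at the centrosome (-0.83 ± 0.13). TUBG1 has no RefSeq span and was not in the fit with the span trend removed, where the 2 falls are other genes. CDK5RAP2 and CEP192, centrosome scaffolds that recruit gamma-tubulin, rose by 0.72 ± 0.14 and 0.45 ± 0.12. CEP192 was not called without library 1 labelled BRG1 (adjusted p = 0.127) or with the span trend removed (0.0714).

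Of 12 factors of the DREAM and MuvB complexes 2 rose and 4 fell, or 2 and 1 by library size alone, with the span trend removed or without library 1 labelled BRG1. MYBL2, which encodes the activator B-MYB, fell from 20.0 ± 2.11 to 8.15 ± 0.49 CPM (-1.29 ± 0.16). RBL2, which encodes the pocket protein p130 of the DREAM repressor, rose from 27.1 ± 3.55 to 43.4 ± 1.49 CPM (0.68 ± 0.13), and TFDP2, a dimer partner of E2F factors, from 7.42 ± 1.34 to 20.2 ± 1.86 (1.44 ± 0.17). E2F4, also part of the DREAM repressor, fell by 0.33 ± 0.11 on the log2 scale. LIN37 (0.57 ± 0.14) and TFDP1 (0.29 ± 0.10) of the same list fell too. By library size alone or with the span trend removed, MYBL2 was the only fall. FOXM1 was not called. The largest adjusted p among the genes named from these 5 lists was that of TFDP1 (0.0325, edgeR).

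**Figure D5:**
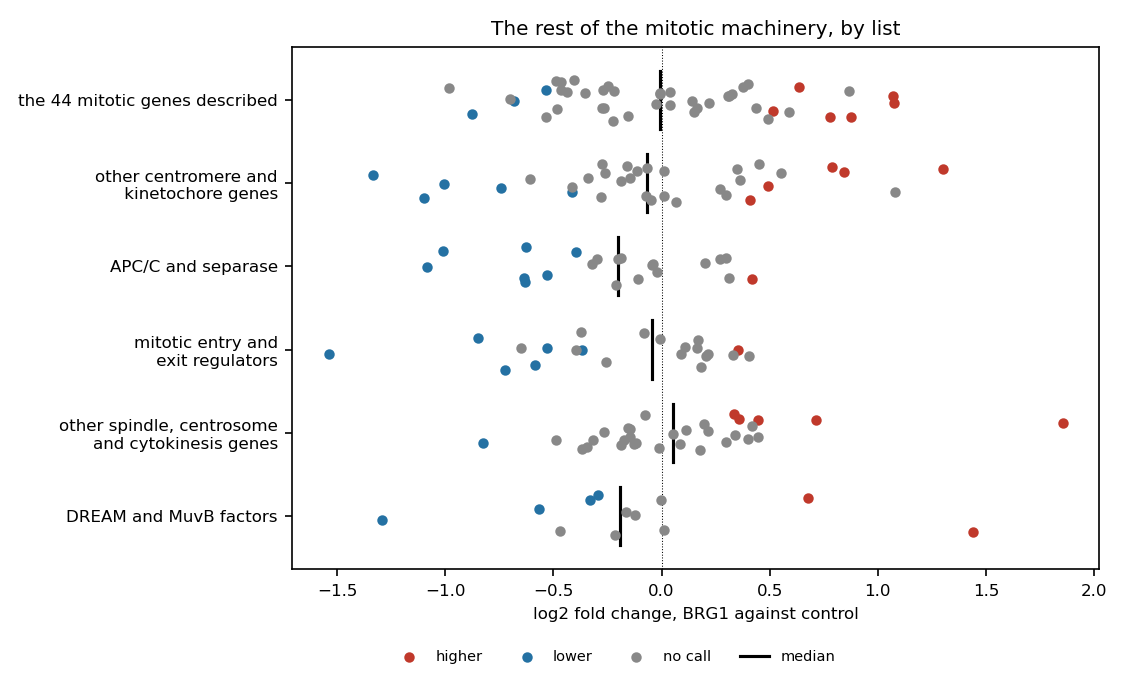
Log2 fold change of the 44 mitotic genes and of 119 genes in 5 other lists of the mitotic machinery; each point is a gene, coloured by its call, and black bars are medians. Rises and falls occur in every list, and the medians lie between -0.20 and 0.05; scaled by library size alone they lie between 0.02 and 0.28.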

How the data were processed

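The authors deposited raw read counts per Ensembl gene, 1 file per library, on pig build Sscrofa11.1. The submitters' processing notes name STAR, SAMtools and Cufflinks, beside FastQC, edgeR and DESeq2; the read counter, strand setting and annotation release are not given in the sources used here. Reads on more than 1 gene were set apart in a closing row. They made up 2.33% and 2.14% of all reads in controls and 1.91% and 1.90% in the libraries labelled BRG1. Overlapping genes may thus have lost reads, and whether antisense reads were counted is unknown. The RefSeq spans of 16 of the 44 genes overlap another gene. Closing rows that name no gene were left out of library sizes and tests.

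Groups and replicate numbers come from the sample titles. Counts were analysed in R 4.3.3 with edgeR 4.0.16: filterByExpr (minimum count 10, minimum total 15), TMM, a quasi-likelihood F test over all 14617 genes with a prior count of 0.125, and Benjamini-Hochberg adjustment with a threshold of 0.05. The SE was derived from F and the log2 fold change without shrinkage, and 95% intervals use it. Genes in the files were matched by their symbol column; other lists also used a table of gene names, and coordinates and spans come from RefSeq for Sscrofa11.1. Replicates correlated at 0.983 (controls) and 0.987 (BRG1-labelled) in log2 CPM and were farther apart than counting noise allows (chi-square per degree of freedom 38.3 and 5.33). The fit was also run on simulated counts with the same spread in both groups and few changed genes. That run does not cover the unequal spread of these groups or the large share of genes called.

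Alternatives were other scalings and filters, DESeq2 1.42.0, limma-voom (limma 3.58.1), the replicate number as a term, a fit with the span trend of each library removed, an adjusted p of 0.01 and each library left out in turn. All 44 genes are given. From other lists up to 3 called genes with the smallest adjusted p are named. The called cyclins CCNB3 and CCNF and the remaining called genes of the DREAM and MuvB list are named as well. The genes and lists were chosen with earlier results of these data known.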

Additional observations from a re-analysis of the deposited data

Results flagged for a closer look

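Reads outside annotated genes, which no comparison above uses, made up 10.4% ± 0.19 of all reads in the libraries labelled BRG1, above the 6.73% ± 0.87 in controls (SD, n = 2). An exact permutation test of 2 against 2 cannot go below p = 0.333. Their part in the differences of mitotic genes was not tested.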

How the results depend on the processing

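With scaling by library size alone, which moved the median of all genes by 0.23 on the log2 scale, 10 of the 44 mitotic genes rose and 1 fell, against 6 and 3, and 26 other mitotic genes rose and 8 fell, against 14 and 23; the median of the 44 was 0.22. With the trend with gene span removed, 1 of the 44 fell, as did 15 of the 116 other mitotic genes with a span. At an adjusted p of 0.01, 1 of the 44 fell, and 6 other mitotic genes rose and 10 fell. Leaving out each library in turn gave 3 to 9 rises and 2 to 9 falls among the 44, and 4 to 17 rises and 7 to 31 falls among the others. The SMARCA4 value ranged from -0.15 to 0.048 when libraries were left out and passed as lower without control 1 (adjusted p = 0.0251). With the replicate number as a block, 8 of the 44 rose and 4 fell (NUF2, ANLN and CCNB2 were added); same-numbered deviations from the group means had a correlation of -0.04 over all genes and 0.32 over the 44, and since the labels do not say that a number marks a shared culture, the libraries were not treated as pairs. Of the 9 called genes, 4 kept their call under all 12 refits. Of the 35 without a call, 14 were called under at least 1 refit and 14 changed the sign of their estimate under at least 1; no called gene changed sign. Depth limits the thinly read genes: 9 of the 44 had under 100 reads in every library, and for 21 of the 35 without a call the 95% interval lay within a 2-fold change in either direction.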
